A study of Homo sapiens with 9 samples.

Results

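The genes described here encode 4 ligands of the B7 family through which myeloid cells restrain or costimulate T cells: CD274 (PD-L1), PDCD1LG2 (PD-L2), CD80 (B7-1) and CD86 (B7-2). They were chosen by symbol, with dim measurements kept. Each of the 4 had 1 row in the value table, so 4 genes of the 14884 named ones are followed, or 4 of 16098 named rows. The cells were THP-1, a human monocytic leukaemia line, turned into an M0 macrophage-like state with the phorbol ester PMA, which the controls received too. After differentiation they were given vehicle, cisplatin at 0.5 µM, or osimertinib at 100 nM for 16 h, with 3 replicates in each of the 3 groups. The labels call the replicates independent and biological, and each was hybridised to its own Affymetrix Human Gene ST array. Cisplatin is a platinum compound that crosslinks DNA, and osimertinib is a covalent inhibitor of mutant epidermal growth factor receptor. THP-1 is a single line, and no T cells were part of the cultures as labelled.

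A T cell needs a second signal besides the antigen receptor, and CD80 and CD86 on an antigen-presenting cell give it by binding CD28. The same pair binds the inhibitory receptor CTLA4, CD80 more tightly than CD86. CD274 and PDCD1LG2 bind PD-1, encoded by PDCD1, and dampen the T cell. In macrophages CD274 is well known as a gene induced by interferon gamma through JAK2 and IRF1, while PDCD1LG2 is strongly induced by interleukin 4 through STAT6.

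All values below are the deposited array values on a log2 scale, where a difference of 1 is a doubling. Over all rows the array medians ran from 3.29 to 3.37, and the median of the named row means was 4.24. Probes of different genes respond differently, so levels are compared across arrays and never between the 4 genes. Whether a row stood above background was not measured here. A limit at the median of the gene means, 4.28, would have kept the row of PDCD1LG2 and left out the other 3, so no such limit was set. Of the macrophage markers, 7 of 16 had a named row; with vehicle CD68 was at 9.44, the receptor CSF1R at 8.57, the signalling adaptor TYROBP at 7.49 and the transcription factor SPI1 at 7.21, but CD14 was at 4.22 and LYZ at 3.12. The 7 named rows of T-cell and B-cell markers lay between 3.06 and 4.73 with vehicle.

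CD274 rose with both drugs. With vehicle its level was 2.73, 3.10 and 3.14 on the 3 arrays, with cisplatin 4.04, 4.17 and 3.92, and with osimertinib 3.89, 3.62 and 3.72. Every treated array was above every vehicle array, with each drug. The means were 2.99 ± 0.23, 4.04 ± 0.12 and 3.74 ± 0.13 (SD, n = 3 each). CD274 was 2.07-fold higher with cisplatin than with vehicle (log2 difference 1.05, 95% interval 0.76 to 1.35, limma adjusted p = 3.17e-04). With osimertinib it was 1.69-fold higher (0.75, interval 0.46 to 1.05, adjusted p = 0.00263). Both calls held on leaving out any 1 of the 9 arrays, with adjusted p up to 0.00234 for cisplatin and 0.0143 for osimertinib.

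The sequence before the CD274 start is shown because it holds letters that factors of the interferon response are known to bind. It is the 250 bases upstream of the RefSeq start, chr9:5450292-5450541 of GRCh38.p14, plus strand, written 5′ to 3′, and the capitals mark matches to the motifs searched. The first CD86 window, chr3:122055112-122055361 on the plus strand, and the CD80 window, chr3:119559615-119559864 on the minus strand, are shown beside it, CD80 as the ligand that passed no test.
CD274: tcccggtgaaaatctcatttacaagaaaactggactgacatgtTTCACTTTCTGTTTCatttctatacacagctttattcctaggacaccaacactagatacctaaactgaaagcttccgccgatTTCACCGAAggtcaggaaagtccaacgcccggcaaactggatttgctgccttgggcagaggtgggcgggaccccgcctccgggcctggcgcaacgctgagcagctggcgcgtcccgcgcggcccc
CD86: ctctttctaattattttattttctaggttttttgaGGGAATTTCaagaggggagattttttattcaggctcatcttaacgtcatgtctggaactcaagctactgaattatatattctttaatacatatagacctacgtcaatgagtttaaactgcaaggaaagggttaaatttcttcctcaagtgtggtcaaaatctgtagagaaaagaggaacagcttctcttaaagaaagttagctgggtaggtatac
CD80: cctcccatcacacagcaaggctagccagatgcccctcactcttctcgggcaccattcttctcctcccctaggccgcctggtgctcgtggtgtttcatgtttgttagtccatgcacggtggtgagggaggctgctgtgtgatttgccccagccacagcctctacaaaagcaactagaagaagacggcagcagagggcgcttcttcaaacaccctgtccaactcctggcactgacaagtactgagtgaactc

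The first run of capitals in CD274 joins 2 overlapping matches to the core of the interferon response element, GAAANNGAA, both read on the minus strand, 207 to 199 and 201 to 193 bases before the start. The second run, 125 to 117 bases before the start, matches the palindrome TTCNNNGAA of the gamma-activated site. Among 35116 RefSeq windows of this length, 6.88% held the interferon core and 6.57% the gamma-activated site on either strand. The capitals in CD86, 215 to 207 bases before the start, match the NF-kB letters GGGANTTTC, which 1.12% of windows held. The AP-1 letters TGANTCA (in 6.57% of windows), the cAMP response element TGACGTCA (1.65%) and the E-box CACGTG (6.34%) were searched on both strands too. The CD80 window and the second CD86 window had no match to any of the 6 motifs. PDCD1LG2 had no window in the set used, so its letters were not searched. A match is a description of the letters, and binding was not measured.

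PDCD1LG2 rose with both drugs as well. Its level was 4.08, 4.42 and 4.30 with vehicle, 4.97, 5.58 and 5.18 with cisplatin, and 4.98, 5.00 and 4.67 with osimertinib. All 6 treated arrays were above the 3 vehicle arrays, and the lowest treated one was osimertinib replicate 3. The means were 4.27 ± 0.17, 5.25 ± 0.31 and 4.88 ± 0.19 (SD, n = 3 each). The rise with cisplatin was 1.97-fold (0.98, interval 0.63 to 1.33, adjusted p = 0.00165) and held without any 1 array. The rise with osimertinib was 1.53-fold (0.62, interval 0.27 to 0.97, adjusted p = 0.0237). That second call ended without vehicle replicate 1 (adjusted p = 0.0952), vehicle replicate 3 (0.0632), osimertinib replicate 1 (0.0841) or osimertinib replicate 2 (0.0893), and with all 53617 rows in the fit (0.0563).

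CD86 rose with cisplatin in a call that rested on single arrays. Its level was 3.23, 2.85 and 2.68 with vehicle, 3.21, 3.74 and 3.67 with cisplatin, and 3.26, 3.24 and 3.04 with osimertinib. The cisplatin and vehicle arrays overlapped, since cisplatin replicate 1 lay just under vehicle replicate 1. The means were 2.92 ± 0.28, 3.54 ± 0.29 and 3.18 ± 0.12 (SD, n = 3 each). With cisplatin CD86 was 1.53-fold higher (0.62, interval 0.24 to 0.99, adjusted p = 0.0311). The call ended without vehicle replicate 2 (0.0981), vehicle replicate 3 (0.128), cisplatin replicate 2 (0.116) or cisplatin replicate 3 (0.112), with all rows of the table in the fit (0.0676), and with osimertinib left out of the fit (0.0667). With osimertinib the difference from vehicle was 0.26 (interval -0.12 to 0.63, adjusted p = 0.401).

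CD80 did not pass the test with either drug. Its level was 2.18, 2.28 and 2.25 with vehicle, 2.25, 2.23 and 2.20 with cisplatin, and 2.29, 2.36 and 2.25 with osimertinib. The 9 arrays spanned only 0.18, and 3 of them, 1 in each group, held an identical value of 2.25. The means were 2.24 ± 0.053, 2.23 ± 0.025 and 2.30 ± 0.054 (SD, n = 3 each). The differences from vehicle were -0.0065 with cisplatin (interval -0.19 to 0.18, adjusted p = 0.977) and 0.064 with osimertinib (-0.12 to 0.25, adjusted p = 0.709).

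**Figure D1:**
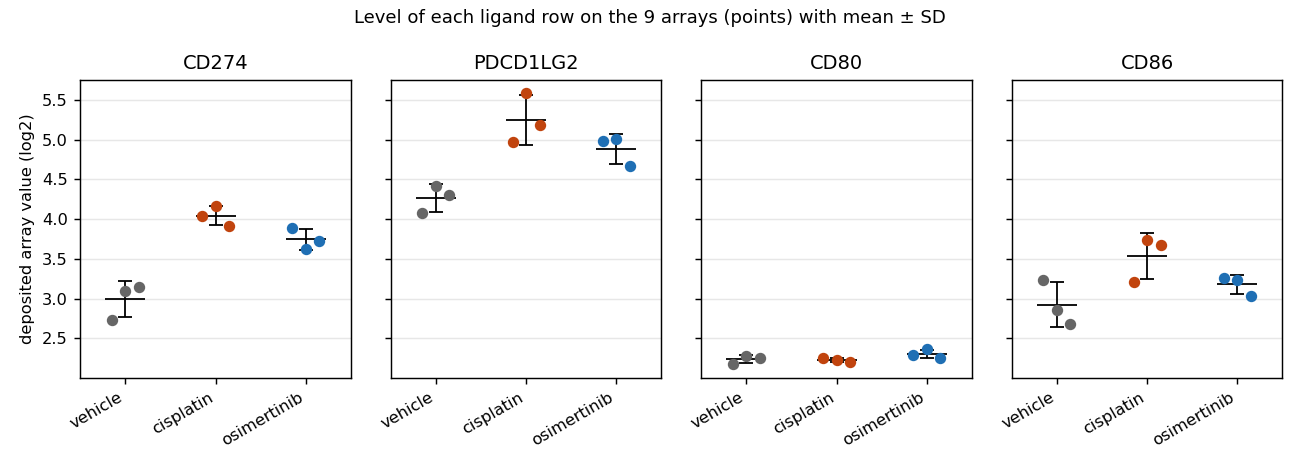
Deposited log2 value of the row of each ligand on the 9 arrays (points, 3 per group), with the group mean (horizontal bar) and SD (whisker). For CD274 and PDCD1LG2 all treated points lie above the vehicle points, for CD86 the vehicle and cisplatin points overlap, and the CD80 points span 0.18.

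Counted together, 3 of the 4 ligands were called higher with cisplatin and 2 of 4 with osimertinib, and 0 were called lower. Over all named rows 7.39% were called higher and 7.27% lower with cisplatin, and 7.66% and 6.94% with osimertinib. That near-even split depended on the rows and the scaling: over all 53617 rows 1870 were higher and 3425 lower with cisplatin and 1857 and 3287 with osimertinib, and with named rows centred on the array median 957 and 1371 with cisplatin and 1143 and 1163 with osimertinib. The arrays of treated and vehicle groups did not overlap, with the treated ones higher, in 2 of 4 ligands with each drug, against 15.8% of all named rows with cisplatin and 15.7% with osimertinib. Both comparisons use the same 3 vehicle arrays, so a vehicle array that stands low raises both differences.

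The drugs were then compared with each other. For CD274 osimertinib minus cisplatin was -0.30 (interval -0.59 to -0.0050, adjusted p = 0.60), and its 3 osimertinib arrays lay below its 3 cisplatin arrays, as in 5.75% of named rows. The difference for PDCD1LG2 was -0.36 (interval -0.72 to -0.0096, adjusted p = 0.599), for CD86 -0.36 (-0.73 to 0.012, adjusted p = 0.628) and for CD80 0.071 (-0.11 to 0.26, adjusted p = 0.886). By limma 0 of the 4 were called, where 0.385% of all named rows were. An unadjusted p under 0.05 was reached by 2 of the 4, and by 1242 of all 14884 named genes. The number of ligands called was 0 in each of the other settings tried. The intervals leave room for a level of PDCD1LG2 or CD86 that is lower with osimertinib by up to 0.72 or 0.73, so the data do not show that the drugs act alike on them.

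**Figure D2:**
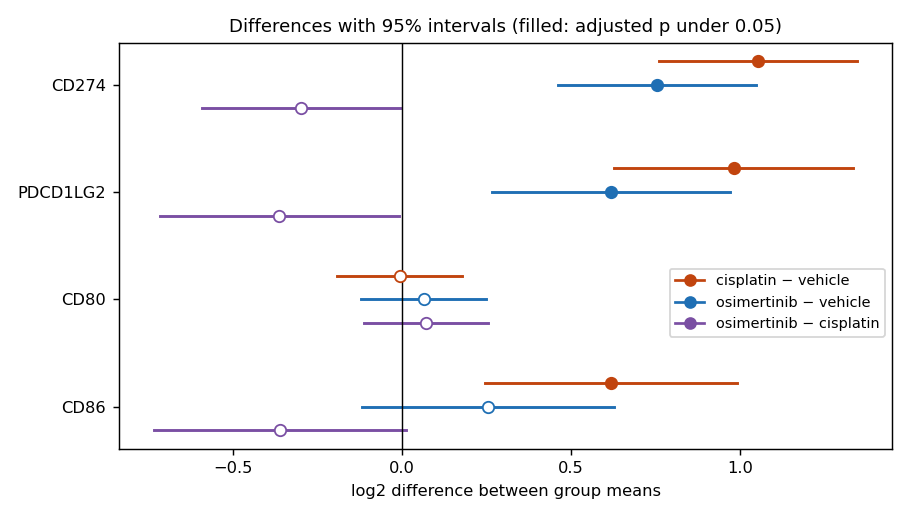
Log2 difference between group means of each ligand (points) with its unadjusted 95% interval (lines) for cisplatin against vehicle, osimertinib against vehicle and osimertinib against cisplatin; filled points have an adjusted p under 0.05. CD274 and PDCD1LG2 are filled against vehicle for both drugs, CD86 for cisplatin only, and no point is filled between the drugs.

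**Figure D3:**
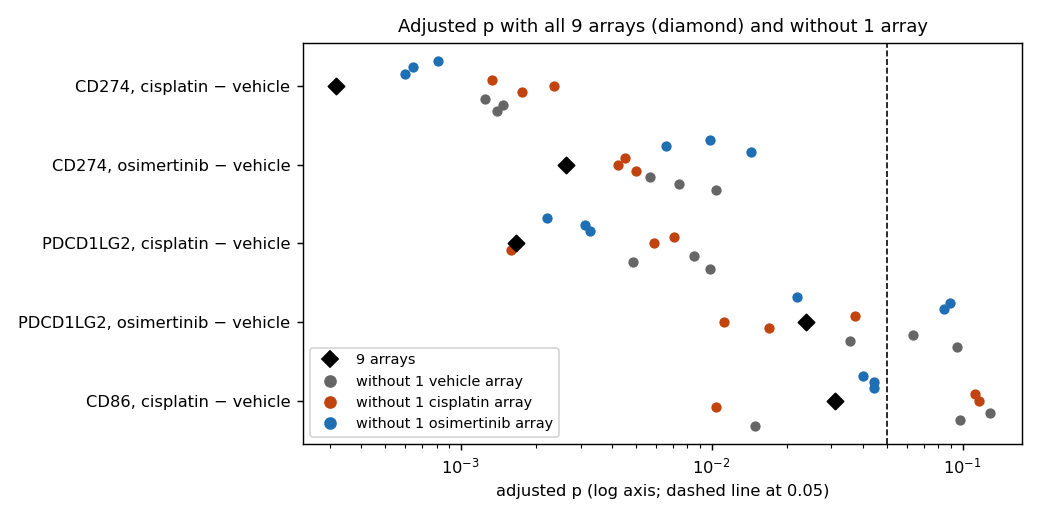
Adjusted p (log axis) of the 5 calls against vehicle with all 9 arrays (diamonds) and with 1 array left out (circles, coloured by the group of the array left out). The circles of CD274 with both drugs and of PDCD1LG2 with cisplatin stay left of 0.05, and 4 circles each of PDCD1LG2 with osimertinib and of CD86 with cisplatin lie to its right.

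CD274 and PDCD1LG2 are next to each other on chromosome 9, so the protein-coding genes around the pair were examined, 5 on each side of each. Of the 10 neighbours 8 had a named row. With cisplatin 0 of the 8 were called by limma (1 had an unadjusted p under 0.05), and with osimertinib 1 was, ERMP1, an endoplasmic reticulum peptidase gene, at 0.43 (SE 0.076, adjusted p = 0.00283). RIC1, the gene directly after PDCD1LG2 and a regulator of Golgi traffic, was at -0.14 with cisplatin (adjusted p = 0.262) and -0.10 with osimertinib (adjusted p = 0.445). The relaxin family genes INSL6, INSL4, RLN2 and RLN1 on the other side of CD274 were at -0.12 to 0.016 with cisplatin and 0.022 to 0.041 with osimertinib. Around CD80, 1 of 8 named neighbours was called, TIMMDC1, a respiratory complex I assembly factor, at 0.41 with cisplatin and 0.68 with osimertinib. The cisplatin call of TIMMDC1 ended without any 1 of the vehicle arrays, cisplatin replicate 2 or 3, or osimertinib replicate 2 (adjusted p = 0.055 to 0.142), with every row in the fit (0.0848), with arrays centred on the median (0.0587) and without trend and robust fitting (0.0657). Around CD86, 1 of 8 was called with cisplatin, the transcription elongation gene EAF2 at -0.67 (adjusted p = 0.0326; 0.0679 to 0.133 without vehicle replicate 2 or 3 or cisplatin replicate 1 or 2, 0.0742 with every row in the fit and 0.051 with osimertinib left out). With osimertinib 0 of the 8 around CD86 were called, and 1 had an unadjusted p under 0.05. Among all named rows 7.39% were called higher and 7.27% lower with cisplatin, and 7.66% and 6.94% with osimertinib. A count of 0 or 1 in 8 is therefore near the share of the table. Over all 14884 named genes 3934 and 3875 had an unadjusted p under 0.05.

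**Figure D4:**
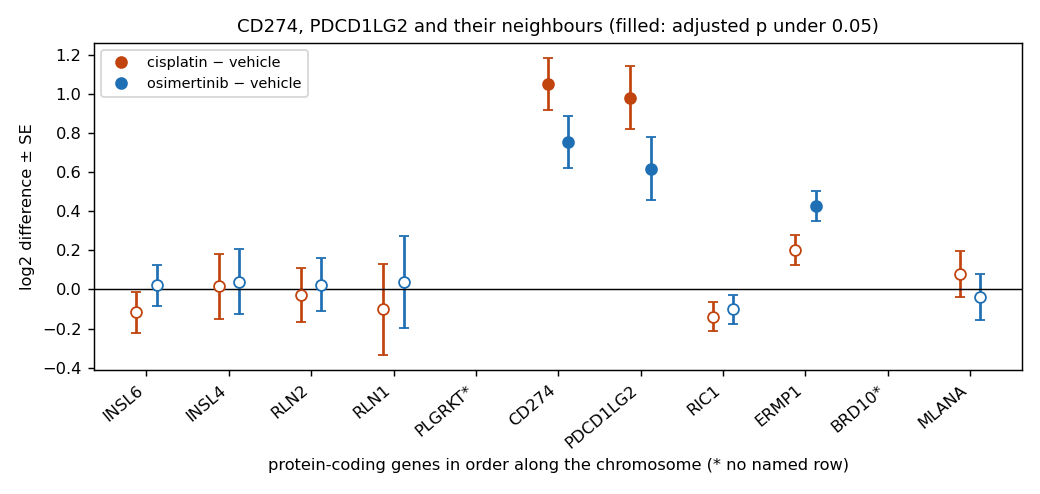
Log2 difference from vehicle (points, with SE) of CD274, PDCD1LG2 and the 5 protein-coding genes on each side of CD274, in their order along the chromosome; filled points have an adjusted p under 0.05, and a star marks a gene with no named row. CD274 and PDCD1LG2 stand at 0.62 to 1.05, ERMP1 at 0.20 with cisplatin and 0.43 with osimertinib (filled), and RIC1 and the relaxin family genes between -0.14 and 0.041.

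Among other ligands of T-cell checkpoints, 12 of 22 had a named row. With cisplatin 2 of the 12 rose and 0 fell, with a median difference of 0.051, and with osimertinib 1 rose and 0 fell, with a median of 0.032; over all named genes the medians were 0.040 and 0.028. With 7.39% and 7.66% of all named rows called higher, the 1 of 12 with osimertinib is near the share of the table. VSIR, which encodes the inhibitory B7 relative VISTA, rose by 0.40 with cisplatin and 0.32 with osimertinib. The osimertinib call of VSIR (adjusted p = 0.0391) ended without any 1 array except vehicle replicate 3 and cisplatin replicate 1 (0.0533 to 0.128), with every row in the fit (0.057), with arrays centred on the median (0.0545) and with cisplatin left out of the fit (0.0606). NECTIN2, a ligand of the receptors CD226 and TIGIT, rose by 0.41 with cisplatin, a call that ended without vehicle replicate 2 (0.0534) or 3 (0.0603). The inhibitory ligand CD276 was at 0.10 and -0.034 (adjusted p = 0.659 and 0.907), and ICOSLG, which costimulates through ICOS, at -0.33 and -0.28 (adjusted p = 0.187 and 0.276).

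Of the TNF-family and adhesion costimulators, 9 of 16 had a named row; 2 rose and 0 fell with cisplatin, and 2 rose and 1 fell with osimertinib, with medians of 0.12 and 0.067 against 0.040 and 0.028 over all named genes. Of all named rows 7.39% rose and 7.27% fell with cisplatin, and 7.66% and 6.94% with osimertinib. CD83, a surface protein of activated antigen-presenting cells that protects CD86 from degradation, was at 6.74 to 6.78 on the vehicle arrays, 7.23 to 7.40 with cisplatin and 7.32 to 7.36 with osimertinib. It rose by 0.54 (SE 0.066, adjusted p = 2.35e-04) and 0.58 (adjusted p = 1.44e-04), with no overlap between treated and vehicle arrays. ICAM3, an adhesion ligand of LFA-1, rose by 0.68 and 0.63. CD70, the only TNF-family member of the list with a named row, was at 0.12 and 0.067 (adjusted p = 0.496 and 0.745). CD58, the ligand of the T-cell receptor CD2, fell by 0.49 with osimertinib, a call that ended without vehicle replicate 1 or 3 or osimertinib replicate 3 (0.0632 to 0.0901).

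The receptors that bind these ligands sit mainly on T and natural killer cells, and 11 of 16 had a named row. With cisplatin 0 of 11 were called by limma and 0 had an unadjusted p under 0.05. Over all 14884 named genes 3934 had an unadjusted p under 0.05 with cisplatin, and 7.39% of named rows were called higher and 7.27% lower. With osimertinib 1 fell, CD226, the activating receptor for NECTIN2 and PVR, by 0.27 from a vehicle level of 8.46. As 6.94% of all named rows were called lower with osimertinib, 1 of 11 is near the share of the table. CD226 was also lower with osimertinib than with cisplatin (-0.30, adjusted p = 0.0219), a call that ended without cisplatin replicate 2 or 3 or any 1 osimertinib array (0.0611 to 0.146), with arrays centred on the median (0.0583), with every row in the fit (0.127), without trend and robust fitting (0.211) and with only these 2 groups in the fit (0.101). The rows of CD28 and CTLA4 were at 2.19 and 1.84 with vehicle.

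The interferon pathway, the classical inducer of CD274, had 15 of 22 listed members with a named row. With cisplatin 7 of the 15 rose and 1 fell, and with osimertinib 5 rose and 1 fell; the medians were 0.34 and 0.17, against 0.040 and 0.028 over all named genes. Of all named rows 7.39% and 7.66% rose and 7.27% and 6.94% fell, so the 1 member that fell is near the share of the table. IRF8, a myeloid transcription factor, was at 4.94 to 5.41 with vehicle, 5.88 to 6.15 with cisplatin and 6.54 to 6.59 with osimertinib. It rose by 0.86 (SE 0.12, adjusted p = 5.34e-04) and 1.41 (adjusted p = 1.91e-05), and its difference between the drugs was 0.54 (adjusted p = 0.10). IRF1, the factor that acts on the CD274 promoter after interferon gamma, rose by 0.49 with cisplatin and 0.64 with osimertinib. The cisplatin call of IRF1 (adjusted p = 0.0386) ended without vehicle replicate 1 or 2, cisplatin replicate 2 or 3, or osimertinib replicate 3 (0.0551 to 0.133), with arrays centred on the median (0.0623), with every row in the fit (0.0792) and with osimertinib left out of the fit (0.064). IRF2, which competes with IRF1 for its sites, fell by 0.49 and 0.52 from a vehicle level of 8.80. Of the interferon gamma receptor chains, IFNGR2 rose by 0.48 and 0.51 and IFNGR1 by 0.34 and 0.41. The cisplatin call of IFNGR1 ended without vehicle replicate 2 or 3, cisplatin replicate 2 or 3 or osimertinib replicate 2 (0.0517 to 0.126), with every row in the fit (0.0629) and with arrays centred on the median (0.0641). Its osimertinib call ended without vehicle replicate 2 (0.0596) or osimertinib replicate 1 (0.0555). The kinase gene JAK2 was at 0.46 with cisplatin (adjusted p = 0.0515) and rose by 0.61 with osimertinib, a call that ended without vehicle replicate 2 or 3 or osimertinib replicate 3 (0.0502 to 0.0603). SOCS3, a feedback inhibitor of cytokine signalling, rose by 0.61 with cisplatin, but the mean over its rows was at 0.29 (adjusted p = 0.192). CXCL9, a chemokine induced by interferon gamma, rose by 0.52 with cisplatin from a level of 1.72, a call that ended without vehicle replicate 2 or 3 or cisplatin replicate 3 (0.0567 to 0.107), with every row in the fit (0.0567) and with osimertinib left out of the fit (0.0595). With osimertinib CXCL9 was at 0.13 (adjusted p = 0.63). The listed chemokine CXCL10, at 2.24 with vehicle, was at 0.41 with cisplatin (adjusted p = 0.031, other settings not examined) and -0.13 with osimertinib (0.524). The lowest decile of the named row means ended at 2.09, and the means over the 9 arrays were 1.94 for CXCL9 and 2.33 for CXCL10. CXCL11 was at -0.17 and 0.030 (adjusted p = 0.463 and 0.927).

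The list of interleukin 4 signalling and alternative activation, the setting in which PDCD1LG2 is known to be induced, had 11 of 19 members with a named row. It was written knowing that some of its genes had risen in these samples. The other lists were also written with earlier results of these data known, so counts of the lists are not independent evidence. With cisplatin 4 of 11 rose and 0 fell, and with osimertinib 5 rose and 0 fell, with medians of 0.12 and 0.35 (over all, 7.39% and 7.66% of rows rose and the medians were 0.040 and 0.028). IL4R, the receptor chain for interleukins 4 and 13, was at 6.33 to 6.43 with vehicle, 6.99 to 7.14 with cisplatin and 6.80 to 6.92 with osimertinib, a rise of 0.71 and 0.49 (SE 0.072; adjusted p = 7.33e-05 and 8.68e-04). CISH, a cytokine-induced inhibitor of STAT signalling, rose by 1.06 and 0.84, and the lectin gene CD209 by 1.19 and 0.67. The chemokine gene CCL22 rose by 2.49 and 2.36. PPARG, a nuclear receptor of lipid metabolism, rose with osimertinib by 0.35, and was higher there than with cisplatin by 0.44 (adjusted p = 0.0355). The call between the drugs ended without any 1 array except cisplatin replicate 3 (0.0604 to 0.147), with every row in the fit (0.146), without trend and robust fitting (0.11) and with vehicle left out of the fit (0.139). The chemokine CCL17 was at 0.12 and 0.053 (adjusted p = 0.547 and 0.829), and the factor IRF4 at -0.0028 and -0.024 (0.992 and 0.927).

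Of the NF-kB and AP-1 factors, which also act on these ligand genes, 14 of 21 had a named row; 5 rose with cisplatin, 4 with osimertinib and 0 fell, with medians of 0.13 and 0.088. Over all, 7.39% and 7.66% of named rows rose, and the medians of the named genes were 0.040 and 0.028. The AP-1 genes JUN (1.41 and 1.39), FOS (0.84 and 0.85) and JUNB (0.67 and 0.58) rose with both drugs, and FOSL2 rose by 0.55 with cisplatin. BCL3, a nuclear IkB protein, rose by 0.37 and 0.45, and its cisplatin call ended without vehicle replicate 2 or 3 or cisplatin replicate 3 (0.0652 to 0.105). The NF-kB subunit genes themselves were not called: NFKB1 was at -0.13 and 0.028 and RELA at -0.15 and -0.12.

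Genes known to act on the stability or traffic of the ligand proteins had 12 of 19 members with a named row, and 3 fell and 0 rose with each drug, with medians of -0.064 and 0.057 (over all, 7.27% and 6.94% of rows fell and the medians were 0.040 and 0.028). The members that fell were the kinase gene CDK5 (by 0.53 with each drug), COPS5, a deubiquitinase reported to stabilise PD-L1 (by 0.51 and 0.58), and FBXO22, a ubiquitin ligase subunit (by 0.51 and 0.46). The mean over the rows of FBXO22 was at -0.26 (adjusted p = 0.0651) and -0.18 (0.207). CMTM6, which keeps PD-L1 on the cell surface, was at -0.021 and 0.13 (adjusted p = 0.932 and 0.477). Protein levels were not measured.

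Antigen presentation had only 3 of 28 members with a named row. The protease CTSS (0.35 and 0.37) and the peptide-loading gene TAPBP (0.23 and 0.22) rose with both drugs. B2M, the light chain of MHC class I, rose by 0.30 with osimertinib and was at 0.18 with cisplatin (adjusted p = 0.0609). So 2 of the 3 rose with cisplatin and 3 with osimertinib, where 7.39% and 7.66% of all named rows rose. The TAPBP calls ended without trend and robust fitting (adjusted p = 0.0709 and 0.0822).

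Markers of cell identity were set beside these results. Of the 7 named macrophage markers 2 rose and 0 fell with each drug, where 7.39% and 7.66% of all named rows rose: CD68 by 0.51 and 0.30, and CSF1R by 0.50 and 0.29. The CSF1R call with osimertinib ended without vehicle replicate 1 (0.0546) or osimertinib replicate 2 (0.0694), and without trend and robust fitting (0.0632). The mean level of the 7 rows was 6.36 to 6.44 on the vehicle arrays, 6.48 to 6.69 with cisplatin and 6.44 to 6.60 with osimertinib. Their part in the rise of CD274 and PDCD1LG2 was not tested. Of the 7 named dendritic cell markers 0 were called with either drug by limma (3 and 2 had an unadjusted p under 0.05), and of the 7 T-cell and B-cell markers 0 were called (0 and 1). Over all 14884 named genes 3934 and 3875 had an unadjusted p under 0.05, and with 7.39% and 7.66% of rows called higher a count of 0 in 7 is near the share of the table. The differences of the dendritic cell markers with cisplatin ran both ways, from -0.45 for CD1A to 0.47 for XCR1. That list did not hold CD83, CD209 or CCL22, which were counted in other lists and rose with both drugs.

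**Figure D5:**
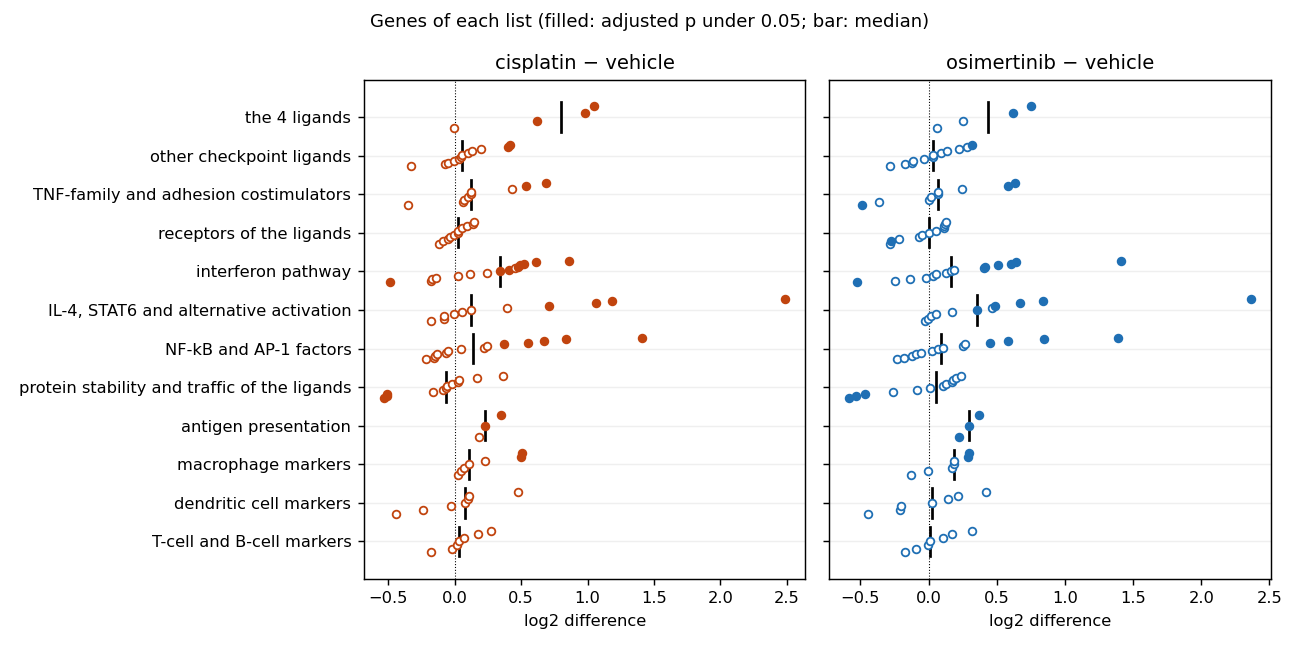
Log2 difference from vehicle of the genes of each list with a named row (points; filled where the adjusted p is under 0.05), with the median as a black bar, for cisplatin (left) and osimertinib (right). The bar of the interferon list is at 0.34 and 0.17, and the T-cell and B-cell markers hold no filled point.

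The genes whose values followed each ligand most closely were found by Pearson's r over the 9 arrays, among genes whose mean level was not under 4.28, the median of all genes. The 9 arrays form 3 treatment groups, so a high r mostly reflects like group means. For CD274 the closest were PMPCA (r = 0.986), MEPCE (0.976), VSIR and SASH3 (both 0.974) and CCDC85A (0.971). For PDCD1LG2 they were LRPAP1 (0.987), the toll-like receptor adaptor TICAM1 (0.982), VPS26C (0.978), the lamin gene LMNA (0.973) and METTL13 (0.972). An r above 0.9 was reached by 254 of 7443 genes for CD274 and 237 of 7442 for PDCD1LG2, so these are the top of long lists. For CD86 the closest were AGFG2 (0.96), MIR4515 (0.944), the chemokine receptor gene CCR1 and IRX5 (both 0.943) and ATP13A2 (0.934), and 30 genes passed 0.9. For CD80, whose values hardly varied, 2 genes did, BRSK2 (0.907) and ZNF490 (0.903), and CCDC124, NMRAL1 and TBX19 followed (0.886 to 0.883).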

How the data were processed

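Total RNA of 9 THP-1 cultures was measured, 3 per group, each on its own array. Per the labels, the raw files went through the usual Affymetrix pipelines at a service provider and were summarized to gene level; the submitters' processing notes list Affymetrix Power Tools, with no version. The deposited values were read as log2, since they run from 0.65 to 13.17; log base, background correction and summarization: not given in the sources used here. Sorted values of the named and unnamed rows differed between arrays by 0.0385 on average, as after a normalization between arrays, which no source used here states; if there was one, changes are relative to most transcripts. Of 53617 rows the platform annotation, which can be old, names 16098 (30.0%) with 1 gene and 37519 not at all. All 14884 Entrez identifiers matched the RefSeq table of GRCh38.p14, with 0 symbols changed.

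Differences were tested with limma 3.58.1 (R 4.3.3) over all 16098 named rows, with no level limit because dim rows of the ligands were to be kept: 3 group means, 6 residual degrees of freedom, empirical Bayes with trend and robust fitting, two-sided p-values adjusted by Benjamini-Hochberg within each of 3 contrasts and called under 0.05. Intervals are unadjusted and use the moderated standard error. The fit was tested on simulated data. Where a listed gene had several rows, the row with the highest mean was used. The ligands and gene lists were chosen with earlier results of these data known, and lists are described without a test. Named were all 4 ligands, up to 6 called genes a list by size of change, those called between the drugs, the called neighbours and the 5 genes most like each ligand. IFNGR1, IFNGR2 and CXCL10, and list members named with values that were not called, were chosen after their values were seen. Promoter windows came from RefSeq (GRCh38.p14), which matched 3 of the 4 ligands. The number of arrays limits the precision. Alternatives were other sets of rows, normalizations, variance models and samples, the replicate number as a block, and leaving out each array.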

Additional observations from a re-analysis of the deposited data

How the results depend on the processing

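CD274 with both drugs and PDCD1LG2 with cisplatin kept direction and call in every setting that tested them; CD274, CD80 and CD86 fell under the level limit and had no value there. Leaving out 1 array gave CD274 0.92 to 1.13 with cisplatin and 0.62 to 0.83 with osimertinib, PDCD1LG2 0.81 to 1.12 and 0.52 to 0.73, CD86 0.50 to 0.78 and 0.13 to 0.41, and CD80 -0.036 to 0.014 and 0.034 to 0.087. CD80 with cisplatin changed sign without vehicle replicate 2 (0.014), vehicle replicate 3 (0.0025) or cisplatin replicate 3 (0.0061). Between the drugs the ranges were -0.37 to -0.24 for CD274, -0.50 to -0.19 for PDCD1LG2, 0.041 to 0.094 for CD80 and -0.53 to -0.26 for CD86. With every row in the fit the calls of CD86 with cisplatin (0.62) and PDCD1LG2 with osimertinib (0.62) were lost at unchanged differences. The SE went from 0.170 to 0.181 for CD86 and from 0.161 to 0.172 for PDCD1LG2. The unadjusted limma p went from 0.0038 to 0.0077 for CD86 and from 0.0026 to 0.0057 for PDCD1LG2. Why the SE rose was not tested.

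Same-numbered arrays did not deviate together (r -0.207 to 0.0998 over 9 pairs, and 0 of 9 arrays correlated best with their own number), so the numbers were not taken as pairs. With the replicate block CD86 with cisplatin stayed at 0.62 and was no longer called (adjusted p = 0.0514), and the called rows went from 2361 to 2109 with cisplatin, 2351 to 2088 with osimertinib and 62 to 42 between the drugs. With the block the cisplatin calls of IRF1, IFNGR1 and TIMMDC1, the osimertinib call of VSIR, and the calls of CD226 and PPARG between the drugs were also not made. With only the 2 groups compared CD86 with cisplatin was not called at 0.62.

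Called rows were 5295 with cisplatin and 5144 with osimertinib over all rows. Leaving out 1 array gave 1698 to 2287, 1700 to 2562, and 23 to 64 between the drugs. That last count was 35 over all rows, 130 with 1 row a gene and the level limit, 182 with quantile normalization on top, 33 without trend and robust fitting and 24 with only the 2 groups compared; the cause was not tested. Of 61 calls of the other named genes, which leave out CXCL10, 0 changed sign and 42 held in every setting that gave a value. For arrays depth means signal over background, which was not measured. The rows of CD274, CD80 and CD86, all under the level limit, therefore restrict what can be said of these genes.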
